A study of Mus musculus with 2 samples.

Results

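Serine synthesis, the folate cycle that carries its carbon, and asparagine synthesis were followed through 10 genes in mouse neural stem cells, the self-renewing precursors of neurons and glia. The genes were taken by symbol from a table of 17359 genes: Phgdh, Psat1, Psph, Shmt1, Shmt2, Mthfd1, Mthfd2, Mthfd1l, Asns and Atf4. Each symbol was found in 1 row. The rule names the genes by their role and uses no threshold on values, but it was written with earlier results of these data known. The cells had been transfected with a scrambled small interfering RNA (siSCR, labelled as the control genotype) or with one against Chd4 (siChd4, labelled as the Chd4 knockdown), and total RNA was sequenced from 1 library of each. Chd4 encodes an ATPase that drives nucleosome remodelling in the NuRD complex. The sources used here do not give the age or origin of the cells, the siRNA dose, or how long after transfection RNA was taken.

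The siSCR library held 19816811 estimated counts and the siChd4 library 20072009. Levels are in TPM, a transcript abundance corrected for transcript length and scaled to the same total in each library. With 1 library per group the spread between cultures is not known, so no difference below was tested between conditions. The intervals given are 95% intervals for counting error alone. Chd4 itself was at 249.5 TPM in siSCR and 203 TPM in siChd4, a fold of 0.815 (0.795 to 0.836). Its estimated counts were 12693 in siSCR and 10924 in siChd4. On the log2 scale of TPM plus 1 its ratio was -0.29, and -0.14 with the trend of ratios with transcript length subtracted. The direction follows the label, but before that subtraction 19.4% of the 12882 genes with a mean of at least 1 TPM had a lower ratio. All 8 neural stem and radial glia markers were above that level, 4 with a ratio below 0 on the log2 scale and 4 above. Their summed level was 11484 TPM in siSCR and 13579 TPM in siChd4, most of it from Fabp7 and Vim, and without these it was 2040 and 1741 TPM. Each of the 4 measured microglia markers was at or below 0.31 TPM in each library.

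Cells make serine from a glycolytic intermediate in a short pathway, in which Phgdh oxidises phosphoglycerate, Psat1 adds an amino group from glutamate and Psph removes the phosphate. Shmt1 in the cytosol and Shmt2 in mitochondria then turn serine into glycine and pass its side-chain carbon to folate. Mthfd2 and Mthfd1l carry that carbon through mitochondria to formate, and Mthfd1 returns it to the folate pool of the cytosol, where it is used for purines and thymidylate. Asns makes asparagine from aspartate and glutamine. Atf4 encodes a transcription factor whose translation rises when amino acids run short. The genes it is known to activate include Asns, the serine synthesis genes and Mthfd2, in part through sites shared with C/EBP proteins, and this is not a full list. In the brain, radial glia and astrocytes are known for making serine, which neurons take up.

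Promoter sequences show where the textbook ATF4 site lies relative to these genes. RefSeq windows of 250 bases before to 50 bases after each annotated start (GRCm38.p6, an older build than the mm39 of the expression table) were matched for 10 of 10 genes, with 11 windows because Psat1 has a further start. The core of the C/EBP-ATF element was searched as TGATGNAA on both strands. It was present in 1 of the 11 windows, that of Asns, and in 3.97% of all 32851 windows. The CCAAT box was searched as CCAAT on both strands and was found in 7 of the 11 windows, against 37.4% of all windows. The E-box CACGTG was in 0 of the 11 and in 7.15% of all. The 60 bases just before the start are shown for Asns, which holds the C/EBP-ATF match, and for 3 genes from the serine and folate steps that hold a CCAAT box. Capitals mark the matches, and ATTGG is CCAAT on the opposite strand. None of these motifs overlapped another in the stretches shown.

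Asns, chr6:7693210-7693269, minus strand: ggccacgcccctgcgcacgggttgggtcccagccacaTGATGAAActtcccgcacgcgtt
Phgdh, chr3:98339970-98340029, minus strand: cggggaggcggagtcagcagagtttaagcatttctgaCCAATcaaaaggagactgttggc
Mthfd2, chr6:83317605-83317664, minus strand: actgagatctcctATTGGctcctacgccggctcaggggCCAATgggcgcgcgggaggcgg
Shmt1, chr11:60811266-60811325, minus strand: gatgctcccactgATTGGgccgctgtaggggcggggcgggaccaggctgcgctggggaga

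The match in Asns begins 23 bases before the start, and so does the CCAAT box of Phgdh shown here. Mthfd2 and Shmt1 each have a box on the opposite strand beginning 47 bases before the start. In the full window Mthfd2 also has boxes on the strand of the gene, at -96 and -22 from the start, and Shmt1 has no other. Any part of these boxes in the levels was not tested. These are matches of letters in a fixed window, and binding was not measured.

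The serine synthesis genes were nearly equal in the libraries. Phgdh was at 479.6 TPM in siSCR and 488 TPM in siChd4, from 6894 and 7397 estimated counts. The fold was 1.02, with an interval of 0.984 to 1.05. Psat1, the most abundant of the 10 genes, was at 532 TPM in siSCR and 549 TPM in siChd4. Its fold was 1.03 (1.003 to 1.06), and the lower bound of the interval lay just above 1. Psph, of the last step, was at 73.6 TPM in siSCR and 75.5 TPM in siChd4, a fold of 1.03 (0.934 to 1.13). On the log2 scale of TPM plus 1, the ratios of Phgdh, Psat1 and Psph were 0.02, 0.05 and 0.04, where the median of all genes was -0.04. The 3 genes lay within the middle 50% of all genes, which runs from -0.24 to 0.17. Their summed level was 1085 TPM in siSCR and 1112 TPM in siChd4.

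Within the pathway the steps differed far more from each other than the libraries did. Phgdh and Psat1 were above 97.7% and 98.1% of the 12882 genes in mean level, and Psph above 77.8%. In siSCR, Psat1 stood at 7.22 times the level of Psph, and in siChd4 at 7.27 times. The change in that ratio was 1.01-fold, with an interval of 0.912 to 1.11. The level of Phgdh over Psph was 6.52 in siSCR and 6.46 in siChd4.

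**Figure D1:**
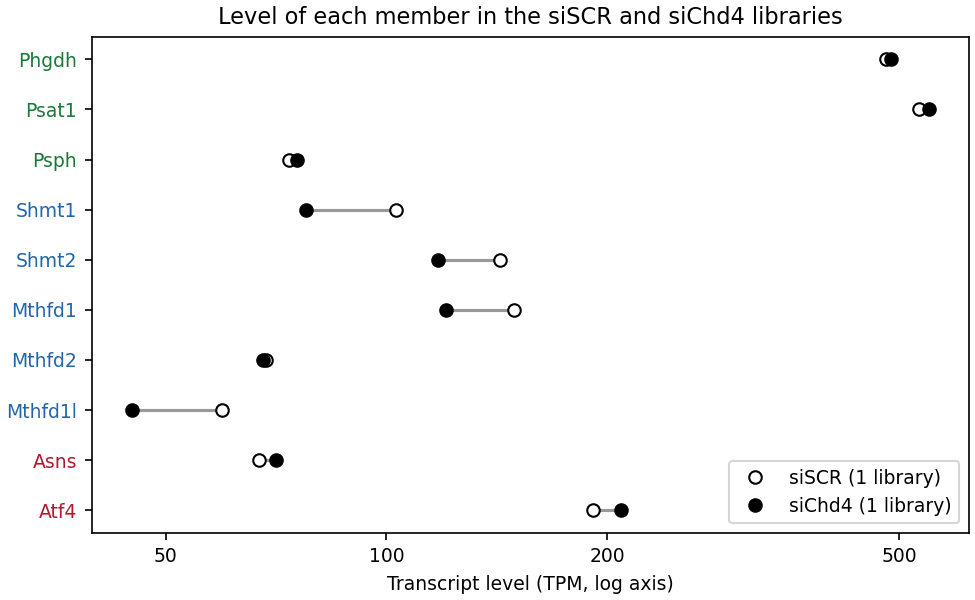
Level of each of the 10 genes in TPM on a log axis, with open circles for the siSCR library and filled circles for the siChd4 library (1 library each); green names are serine synthesis, blue the folate cycle, red asparagine synthesis and Atf4. Phgdh and Psat1 stand at the right, between 479.6 and 549 TPM, and the widest gaps between circles are those of Shmt1 and Mthfd1l.

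The enzymes that move carbon from serine into folate were lower in siChd4, with the exception of Mthfd2. Shmt1, the cytosolic hydroxymethyltransferase, was at 103 TPM in siSCR and 77.6 TPM in siChd4, a fold of 0.753 (0.700 to 0.811). Its mitochondrial counterpart Shmt2 was at 143 TPM in siSCR and 118 TPM in siChd4, a fold of 0.823 (0.777 to 0.871). Both isoenzymes were thus lower in the siChd4 library, and their intervals overlapped. The level of Shmt2 over Shmt1 was 1.39 in siSCR and 1.52 in siChd4, a change of 1.09-fold whose interval of 0.996 to 1.20 includes 1.

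Mthfd1, the cytosolic enzyme with several activities on folate, was at 149 TPM in siSCR and 120.4 TPM in siChd4, from 3857 and 3284 estimated counts. The fold was 0.807 (0.770 to 0.846). Mthfd1l, which releases formate in mitochondria, was at 59.8 TPM in siSCR and 44.9 TPM in siChd4, a fold of 0.752 (0.700 to 0.808). It was the least abundant of the 10 genes in each library.

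Mthfd2, the mitochondrial dehydrogenase and cyclohydrolase that works one step before Mthfd1l, was at 68.5 TPM in siSCR and 67.8 TPM in siChd4. Its fold was 0.990 (0.910 to 1.08). The level of Mthfd2 over Mthfd1l was therefore 1.15 in siSCR and 1.51 in siChd4, a change of 1.32-fold with an interval of 1.18 to 1.47. The summed level of Mthfd2 and Mthfd1l over that of the cytosolic Mthfd1 was 0.860 in siSCR and 0.936 in siChd4, a change of 1.09-fold (1.01 to 1.17).

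On the log2 scale of TPM plus 1, the ratios were -0.40 for Shmt1, -0.40 for Mthfd1l, -0.31 for Mthfd1, -0.28 for Shmt2 and -0.01 for Mthfd2. The first 4 were below 0 with every scaling tried and with the trend of ratios with transcript length subtracted, while Mthfd2 turned to above 0 with 4 of the 6 other settings, reaching 0.04. The median of the 5 genes was -0.31, against -0.04 over all genes, and their summed level was 523 TPM in siSCR and 428 TPM in siChd4. All 5 were below 0, as were 55.3% of all genes. Shmt1 had a lower ratio than all but 11.2% of genes, Mthfd1l than all but 11.3%, Mthfd1 than all but 18.2% and Shmt2 than all but 20.8%. None of the 4 lay outside the middle 90% of all genes, from -0.56 to 0.70.

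**Figure D2:**
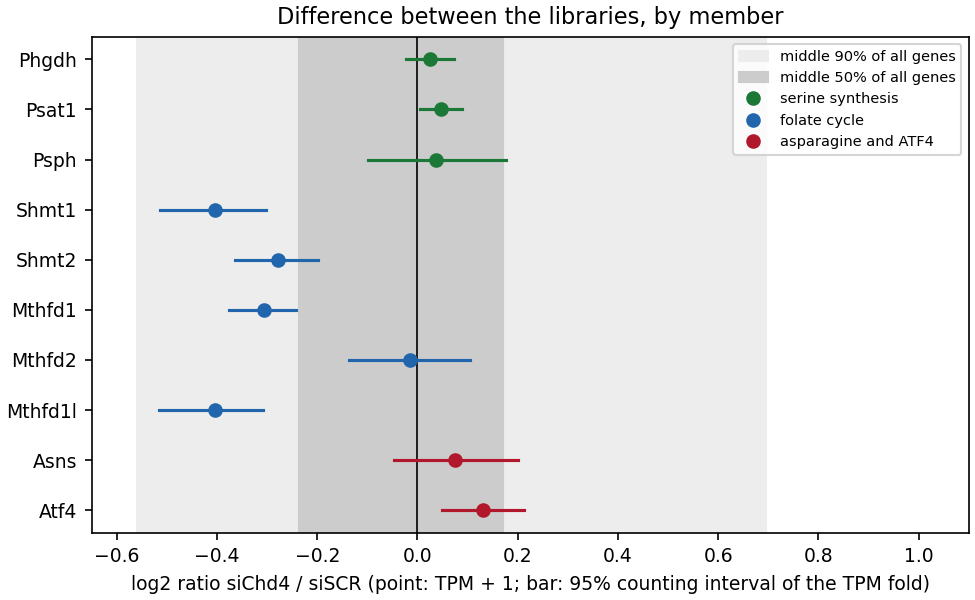
Log2 of siChd4 over siSCR for each of the 10 genes (points, on TPM plus 1) with the 95% counting interval of the TPM fold (bars), over the middle 50% and middle 90% of the 12882 genes (dark and light grey). Shmt1, Shmt2, Mthfd1 and Mthfd1l lie left of the dark band and inside the light one, and the other 6 genes lie inside the dark band.

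Asns and Atf4 were slightly higher in siChd4. Asns, the asparagine synthetase, was at 67.0 TPM in siSCR and 70.7 TPM in siChd4, a fold of 1.05 with an interval of 0.968 to 1.15 that includes 1. Atf4 was at 191 TPM in siSCR and 209 TPM in siChd4, a fold of 1.095 (1.035 to 1.16). The ratio of Atf4, 0.13 on the log2 scale, was the highest of the 10 genes, and 71.2% of all genes had a lower one. The transcript of Atf4 says nothing of its translation, through which the factor is mainly controlled, and protein was not measured.

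Read against all genes, few members stood out. Of the 10 genes, 2 were at least 20% lower in siChd4, Shmt1 and Mthfd1l, and 0 were at least 25% higher, the same limit on the log scale. Of all genes on TPM, 17.1% were lower and 14.9% higher by that limit, and 10.9% and 15.6% on FPKM, the deposited unit whose total differs between the libraries. At 1.5-fold 0 of 10 were lower and 0 were higher, against 4.47% and 6.75% of all genes. The counting interval lay below 1 for 4 of 10 genes (Shmt1, Shmt2, Mthfd1 and Mthfd1l), and for 34.2% of all genes. It lay above 1 for 2 of 10 (Psat1 and Atf4), and for 25.1% of all genes. These shares of the 10 genes are close to those of the table as a whole, and the 4 genes with an interval below 1 were all among the 5 of the folate cycle.

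The order of the 10 levels was almost the same in each library. In siSCR it ran from Psat1 over Phgdh, Atf4, Mthfd1, Shmt2, Shmt1, Psph, Mthfd2 and Asns to Mthfd1l. In siChd4 Asns and Mthfd2 had changed places, but the interval of their ratio included 1 in each library. Mthfd1 and Shmt2 also could not be told apart within counting error in either library. The same held for Psph and Mthfd2 in siSCR (interval of the ratio 0.980 to 1.18). It also held for Psph and Asns in siChd4 (0.977 to 1.17). Shmt1 was at 1.40 times the level of Psph in siSCR (1.29 to 1.52), and at 1.03 times in siChd4 (0.942 to 1.12).

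Counts of some members may include reads of other genes. Exons of Psph, Shmt1, Shmt2 and Mthfd1 overlap those of Cct6a, Smcr8, Ndufa4l2 and Gm47525 on the opposite strand in the GENCODE M21 annotation, and the sources used here do not say whether counting used strand. Cct6a, a chaperonin subunit gene, was at 477 TPM in siSCR and 475 TPM in siChd4, above Psph. Smcr8 was at 21.3 and 18.8 TPM, and Ndufa4l2 at 0.41 and 0.40 TPM, in siSCR and siChd4. Phgdh has an annotated pseudogene. How reads were divided was not tested.

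The wider folate pathway held larger differences in both directions. Of 19 further folate enzymes and transporters, 17 reached a mean of 1 TPM, with a median log2 ratio of -0.12. Of the 17, 10 were below 0 and 7 above, where 55.3% of all genes were below 0. At 1.5-fold, 3 of the 17 were lower and 0 higher, against 4.47% and 6.75% of all genes. Mthfs, which recycles a storage form of folate, was at 15.0 TPM in siSCR and 7.14 TPM in siChd4, from 82.5 and 41.3 estimated counts (0.475-fold, 0.318 to 0.698). Fpgs, which adds the glutamate tail that keeps folate in the cell, was at 27.9 TPM in siSCR and 15.7 TPM in siChd4 (0.564-fold, 0.484 to 0.655). Mtr, the methionine synthase that depends on vitamin B12, was at 22.0 TPM in siSCR and 12.7 TPM in siChd4 (0.576-fold, 0.525 to 0.631). The estimated counts of Mtr were 1172 and 787, a smaller difference. On the log2 scale the ratio of Mtr was -0.751. With the trend of ratios with transcript length subtracted it was -0.576, just short of 1.5-fold. The transcript length behind its TPM was 6749 bases in siSCR and 7464 bases in siChd4, and TPM and counts also differ in their scaling between the libraries for every gene.

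A pair of other folate genes, named here after their values were seen, was higher in siChd4. They were the 2 of the 17 further folate genes that were at least 25% higher, against 14.9% of all genes. At least 20% lower were 3 of the 17, against 17.1% of all genes. Aldh1l1, a cytosolic folate dehydrogenase and an astrocyte marker, was at 309 TPM in siSCR and 421 TPM in siChd4 (1.36-fold, 1.32 to 1.41). Mthfd2l, the mitochondrial paralog of Mthfd2, was at 27.6 TPM in siSCR and 37.8 TPM in siChd4 (1.37-fold, 1.22 to 1.54). In siChd4 it was still below Mthfd2 in level. Of the 7 astrocyte markers, 4 were below 0 and 3 above, where 55.3% of all genes were below 0. The markers had a median of -0.19 and a summed level of 744 TPM in siSCR and 770.2 TPM in siChd4. Aldh1l1 is itself among them, and the sum of the other 6 was lower in siChd4, at 349 TPM against 435 TPM in siSCR. Their part in the level of Aldh1l1 was not tested.

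Pathways that feed on or into the folate pool were mostly lower by small amounts. All 4 genes of the glycine cleavage system, which releases carbon from glycine in mitochondria, were below 0, with a median of -0.20 and 0 at least 20% lower. Its most abundant members were Dld, an enzyme shared with pyruvate dehydrogenase, at 279 TPM in siSCR and 236 TPM in siChd4, and Gcsh, the carrier protein, at 145 and 118 TPM. Of 12 genes of purine synthesis, 11 were below 0 and 1 above, the median was -0.27, 4 were at least 20% lower and 1 was at least 25% higher. Of all genes, 55.3% were below 0, 17.1% were at least 20% lower and 14.9% at least 25% higher. Paics, of the middle of that pathway, was at 401 TPM in siSCR and 328 TPM in siChd4 (0.820-fold, 0.791 to 0.849). Impdh2, of guanine nucleotide synthesis, was at 264 and 262 TPM. No purine gene was past 1.5-fold, against 4.47% of all genes lower and 6.75% higher.

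Genes of cycling cells, which need folate for nucleotides, were lower as well. All 7 listed markers were below 0, as were 55.3% of all genes, with a median of -0.25 and a summed level of 3093 TPM in siSCR and 2507 TPM in siChd4. Under the 6 other settings, 6 or 7 of the 7 were below 0. The mitotic cyclin gene Ccnb1 was at 328 TPM in siSCR and 208 TPM in siChd4. Mcm5, of the replicative helicase, was nearly equal, at 146 and 143 TPM. In these libraries of whole cultures, fewer cycling cells and less RNA per cell cannot be told apart. Neuronal markers were higher, with 7 of 7 above 0 and a median of 0.78, where 55.3% of all genes were below 0. Their summed level was 456 TPM in siSCR and 603 TPM in siChd4, most of it from Map2, at 427 and 516 TPM. The ratios ran from 0.27 for Map2 to 2.08 for Tubb3, which was at 8.70 TPM in siSCR and 40.0 TPM in siChd4. The part of cycling or neuronal genes in the folate values was not tested.

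The methionine cycle takes folate carbon for methylation, and transsulfuration and polyamine synthesis branch from it. Of 14 listed genes of these pathways together, 11 reached a mean of 1 TPM. Their median was -0.07, with 8 below 0 and 3 above, where 55.3% of all genes were below 0. At 1.5-fold 0 of the 11 were lower and 0 higher, against 4.47% and 6.75% of all genes. At least 20% lower were 2 and at least 25% higher were 0, against 17.1% and 14.9% of all genes. Mat2a, which makes S-adenosylmethionine, was at 446 TPM in siSCR and 399.9 TPM in siChd4, and Ahcyl1, a relative of the enzyme that clears its product, at 318 and 242 TPM. Of 14 listed genes that use or carry serine, 12 reached a mean of 1 TPM. At 1.5-fold 1 of the 12 was higher and 0 were lower, against 6.75% and 4.47% of all genes. The higher one was Serinc2, a membrane protein gene at a low level. It was at 2.15 TPM in siSCR and 5.39 TPM in siChd4 (2.51-fold, 1.69 to 3.97). At least 25% higher were 2 of the 12 (Serinc2 and Serinc5), and at least 20% lower was 1 (Slc1a4). The shares of all genes were 14.9% and 17.1%. Serinc5 and Slc1a4 are named after their values were seen. Serinc5 was at 112 TPM in siSCR and 152 TPM in siChd4 (1.35-fold, 1.30 to 1.40). Slc1a4 was at 126 TPM in siSCR and 85.4 TPM in siChd4 (0.680-fold, 0.647 to 0.714). The median of the list of serine use and carriers was 0.11, with 7 above 0 and 5 below, beside 55.3% of all genes below 0.

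The genes of aspartate, glutamate and proline synthesis, which share substrates with Psat1 and Asns, had a median of -0.13 over 11 genes, with 4 at least 20% lower and 0 at least 25% higher, against 17.1% and 14.9% of all genes. Glud1, the glutamate dehydrogenase, was at 547 TPM in siSCR and 392 TPM in siChd4 (0.717-fold, 0.699 to 0.736). Glul, the glutamine synthetase, was higher, at 338 TPM in siSCR and 422 TPM in siChd4 (log2 ratio 0.32, counting interval of the fold 1.21 to 1.29), just short of the 25% limit.

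Other known targets of ATF4 did not share a direction. Of 29 genes, 17 were above 0 and 12 below, with a median of 0.07, where 55.3% of all genes were below 0. By the 25% and 20% limits, 5 were higher and 3 lower, and at 1.5-fold 2 were higher and 0 lower. The shares of all genes were 14.9% and 17.1% by the first limits and 6.75% and 4.47% at 1.5-fold, so these counts are near the background. The genes past 1.5-fold were Nupr1, a stress-induced chromatin protein gene, at 1.5 TPM in siSCR and 5.41 TPM in siChd4 from 6.83 and 26.0 estimated counts (3.61-fold, 1.49 to 9.60), and Stc2, a secreted glycoprotein gene, at 8.20 and 15.2 TPM (1.85-fold, 1.46 to 2.34). Pycr1, a proline synthesis gene that is also in the previous list and was named after its value was seen, was lower, at 8.38 TPM in siSCR and 5.43 TPM in siChd4.

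**Figure D3:**
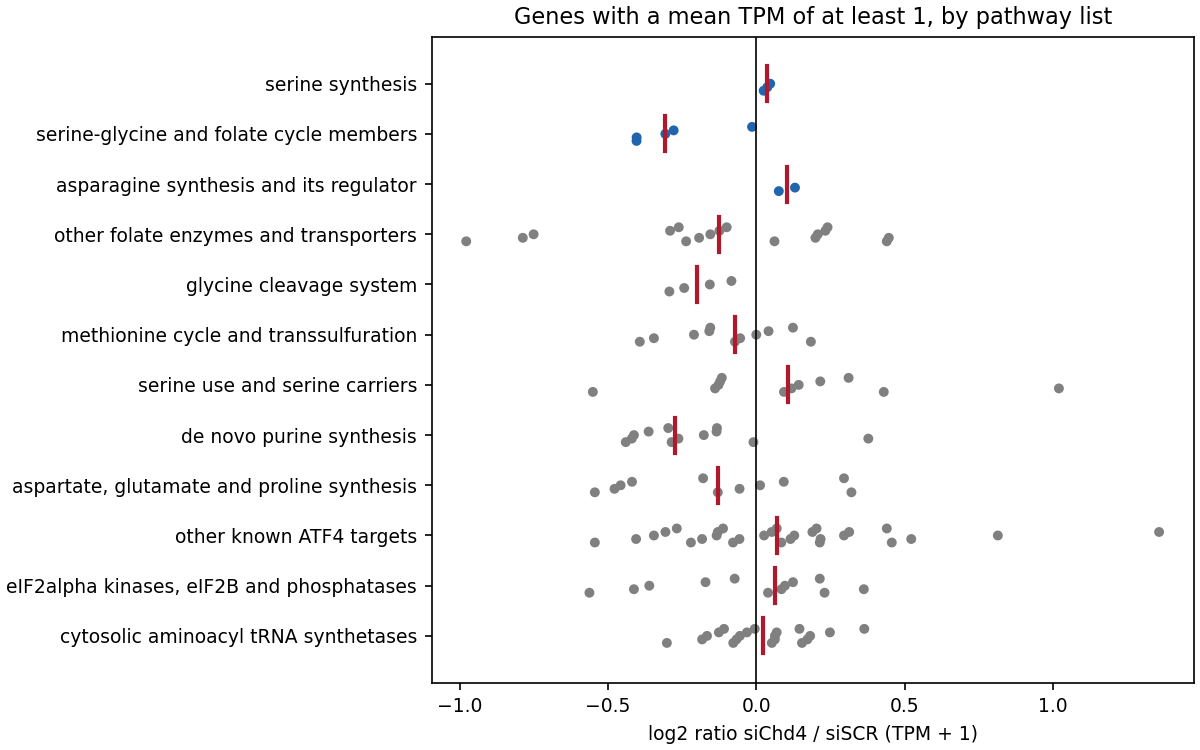
Difference between the libraries (log2 of siChd4 over siSCR, TPM plus 1) for each gene with a mean of at least 1 TPM (dots, the 10 genes in blue), by pathway list, with each list's median as a red bar; 6 genes stand in more than 1 list. The folate cycle genes (median -0.31) and purine synthesis (median -0.27) lie furthest left, and serine synthesis (median 0.04) beside the zero line.

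Under other settings the values of the 10 genes moved by small amounts, not all in the same direction where the length trend was subtracted. Over 6 other settings, Shmt1 ranged from -0.41 to -0.34, Mthfd1l from -0.41 to -0.34, Mthfd1 from -0.31 to -0.25 and Shmt2 from -0.28 to -0.22. Phgdh ranged from 0.01 to 0.08, Psat1 from 0.04 to 0.11, Psph from 0.02 to 0.09, Asns from 0.07 to 0.13 and Atf4 from 0.11 to 0.19.

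**Figure D4:**
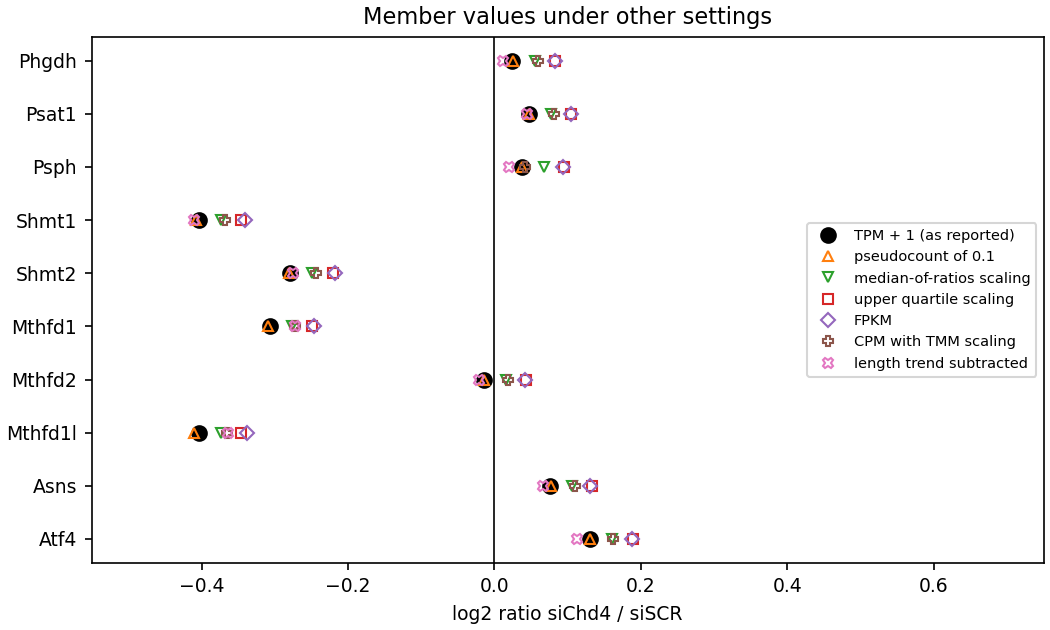
Log2 ratio of siChd4 over siSCR for each of the 10 genes as reported (filled circles) and under 6 other settings (open symbols). The 4 lower folate genes stay left of zero with each setting, Mthfd2 has symbols on each side of it, and the other 5 stay to its right.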

How the data were processed

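RNA of 1 siSCR and 1 siChd4 library was compared. The authors deposited FPKM, TPM and estimated counts per gene, per the file headers; counts are mostly not whole numbers. The submitters' processing notes name the build mm39. The sources used here do not name the aligner or counting tool or say whether strand was used. Ratios are log2 of TPM plus a pseudocount of 1. Limits are on that scale: 1.5-fold in each direction, and 25% higher or, its reciprocal, 20% lower. All genes means the 12882 whose mean TPM was 1 or more. Folds are of TPM. Intervals are exact Clopper-Pearson 95% intervals of the estimated counts, rounded and rescaled to TPM. Those for ratios between genes are exact within a library and normal approximations on the log scale across libraries. All intervals are for counting error, and without molecular identifiers reads need not be independent molecules. The 10 genes had 843 to 9706 estimated counts per library, and 3 counts correspond to 0.151 CPM in siSCR and 0.149 CPM in siChd4.

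The 6 other settings were TPM with a pseudocount of 0.1, TPM scaled by the median of ratios or by the upper quartile, FPKM, CPM with TMM scaling (edgeR 4.0.16, R 4.3.3), and ratios from which a lowess trend on transcript length was subtracted (span 0.3, statsmodels 0.14.6). Numbers of genes past a limit were also taken without a filter and with a mean TPM of 5 or more. The code was tested on simulated counts. The 10 genes and the lists were chosen with earlier results of these data known. Named besides the 10 and Chd4 were list members past 1.5-fold, up to 3 per direction, or the 2 most abundant where none passed, and marker genes; exceptions are stated. A pattern over 2 libraries is 1 ratio, so no genes are named for likeness. List symbols were also matched through RefSeq synonyms.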

Additional observations from a re-analysis of the deposited data

How the results depend on the processing

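Of 60 values of the 10 genes under 6 other settings, 56 stayed within the counting interval. The other 4 were Phgdh and Psat1 on FPKM and with upper quartile scaling, at 0.083 and 0.105. In 4 settings Mthfd2 turned sign. The number of genes past each limit was the same under every setting, 2 at least 20% lower and 0 at least 25% higher, and 0 in each direction at 1.5-fold. The median of the 10 genes was 0.005 and ranged from -0.005 to 0.063. The share of all genes at least 20% lower was 17.1% on TPM and 10.9% on FPKM, and past 1.5-fold downward 4.47% and 2.29%. The total of FPKM differs between the libraries, and the median log2 ratio of all genes was -0.039 on TPM and 0.015 on FPKM. The part of this shift in the shares was not tested. The change in Mthfd2 and Mthfd1l over Mthfd1 was 1.09-fold on TPM and 1.05-fold on counts, which do not correct for the different lengths of the summed genes. Depth limits low genes such as Nupr1 and Mthfs more than the 10 genes. With 1 library in each group no replicate could be left out, and no pairing of samples exists.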

Other observations

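Genes of tRNA loading and of the control of Atf4 translation differed in both directions, with medians near 0. Of 20 cytosolic aminoacyl tRNA synthetase genes, which load amino acids onto tRNA and several of which ATF4 is known to activate, 10 were below 0 and 10 above, with a median log2 ratio of 0.02 and 0 past 1.5-fold. The counting interval lay below 1 for 6 and above 1 for 7 of them, against 34.2% and 25.1% of all genes. The most abundant were Kars, for lysine, at 273 TPM in siSCR and 260.5 TPM in siChd4, and Gars, for glycine, at 217 and 227 TPM. Qars, for glutamine, named after its value was seen, was at 58.3 and 75.4 TPM (1.29-fold, 1.20 to 1.40). It was the 1 gene of the 20 at least 25% higher, and 0 were at least 20% lower. The shares of all genes were 14.9% and 17.1% by these limits and 6.75% and 4.47% at 1.5-fold, and 55.3% were below 0.

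Atf4 translation is controlled through eIF2. Of 12 genes for the kinases, phosphatase subunits and exchange factor that act on it, 7 were above 0 and 5 below. Their median was 0.06, with 0 past 1.5-fold on the TPM plus 1 scale. Of all genes, 55.3% were below 0, and 4.47% were lower and 6.75% higher by 1.5-fold. Eif2s1, the alpha subunit of eIF2 itself, was at 112 TPM in siSCR and 99.0 TPM in siChd4. Eif2b5, of the exchange factor, was at 78.0 and 82.8 TPM. At least 20% lower were 3 of the 12 and at least 25% higher was 1, against 17.1% and 14.9% of all genes. These 4 are named after their values were seen. The lower ones were Eif2ak2, the kinase PKR that senses double-stranded RNA (26.7 TPM in siSCR and 17.8 TPM in siChd4), Ppp1r15b, a phosphatase subunit (81.3 and 60.8 TPM), and Eif2b3, of the exchange factor (51.5 and 39.9 TPM). The higher one was Eif2ak3, the kinase PERK of the endoplasmic reticulum, at 29.3 TPM in siSCR and 38.0 TPM in siChd4.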
